A study of Oryctolagus cuniculus with 6 samples.

Results

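ENSOCUG00000026762 and ENSOCUG00000025982 are 2 of the 23669 Ensembl gene IDs counted in the left ventricle of adult rabbits. They stand in neighbouring rows of the count tables, rows 23258 and 23257. They were chosen because their counts were high in the libraries in which later IDs of another stretch of the tables were low. That stretch is a run of 37 consecutive IDs, ENSOCUG00000029081 to ENSOCUG00000029117, whose size matches the gene number of a vertebrate mitochondrial genome. The pair was proposed as nuclear copies of mitochondrial genes. The tables give no names, positions or sequences, and 0 of the IDs matched a symbol in the reference table used, so neither the proposed identity of the pair nor that of the run was checked by name, position or sequence. The pair is therefore called here by its IDs, and places 1 to 37 of the run follow the ID numbers. No sequence of the pair or of the run was used here.

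The 6 libraries came from rabbits that had all undergone a sham operation, with a loose thread laid around a coronary artery that was not closed. The hearts were harvested 3 weeks later and flushed with a calcium-free solution. The labels put all 6 in 1 group, with no untreated or infarcted samples, and give no strain or sex. Titles carry the prefix 13872 for libraries 1 to 3 and 14285 for libraries 4 to 6, without saying what it stands for, and the labels do not tie a library to an animal or to 1 of the 2 extraction kits. The spread between libraries may thus be partly technical. The left ventricle label was not checked against marker genes, since no ID has a name here.

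Mitochondria keep a small circular genome that encodes ribosomal RNAs, transfer RNAs and subunits of the respiratory chain. Both of its strands are transcribed into long precursors that are cut into the mature RNAs, and heart muscle, rich in mitochondria, holds much of this RNA. In the course of evolution, pieces of mitochondrial DNA have been inserted into nuclear chromosomes, where they are known as nuclear mitochondrial segments. Such copies resemble the mitochondrial genes to varying degrees, and most are not known to make a functional product. A short read from such a stretch may align to the gene, to a copy or to both. A read reported as aligned to several places is set aside by the counting used here, and so is one that falls on several genes.

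Depth ranged from 25427072 to 34882484 fragments per library, with 9829581 to 12514152 of them counted on genes. Levels are given as CPM, an ID's count over the library's total on genes on a common scale. They are not scaled for gene length, so the CPM of different IDs give no order of abundance. An ID with 0 counts could have a true level of up to 3 counts, worth 0.240 to 0.305 CPM here. This bound and the Wilson 95% intervals cover counting error only.

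ENSOCUG00000026762 was counted in every library and moved between 2 well separated ranges. It received 93572, 108822 and 131904 counts in libraries 2, 3 and 5, or 9519, 8811 and 12344 CPM. In libraries 1, 4 and 6 it received 3059, 3353 and 3962 counts, or 272, 307 and 317 CPM. No library lay between these ranges, and the highest was 45.3-fold above the lowest. Within the lower range the values were close, and the Wilson 95% intervals of libraries 4 (296 to 317 CPM) and 6 (307 to 327 CPM) overlapped, while that of library 1 was 263 to 282 CPM. In the upper range the intervals of the 3 libraries were apart, at 8760 to 8864 CPM in library 3, 9459 to 9580 in library 2 and 12278 to 12411 in library 5. Both title prefixes hold libraries of the upper and of the lower range.

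By count, not scaled for length, ENSOCUG00000026762 was the 7th highest ID in library 2 and the 6th in libraries 3 and 5, with 0.952%, 0.881% and 1.23% of gene counts. In libraries 1, 4 and 6 its ranks were 359, 316 and 298. These values describe the pattern for which the ID was chosen and support nothing by themselves.

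ENSOCUG00000025982 had the same 3 libraries on top. It received 3893, 2938 and 6642 counts in libraries 2, 3 and 5, or 396, 238 and 622 CPM. In libraries 1, 4 and 6 only 40, 14 and 28 counts were found, or 3.56, 1.28 and 2.24 CPM. The Wilson 95% intervals of these low levels were 2.61 to 4.85, 0.763 to 2.15 and 1.55 to 3.23 CPM, so library 6 overlapped both of the others. From lowest to highest this was a 486-fold span. The order among the libraries of the upper range was 5, 2, 3 for both IDs, whereas in the lower range library 1 was lowest for ENSOCUG00000026762 and highest for ENSOCUG00000025982.

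**Figure D1:**
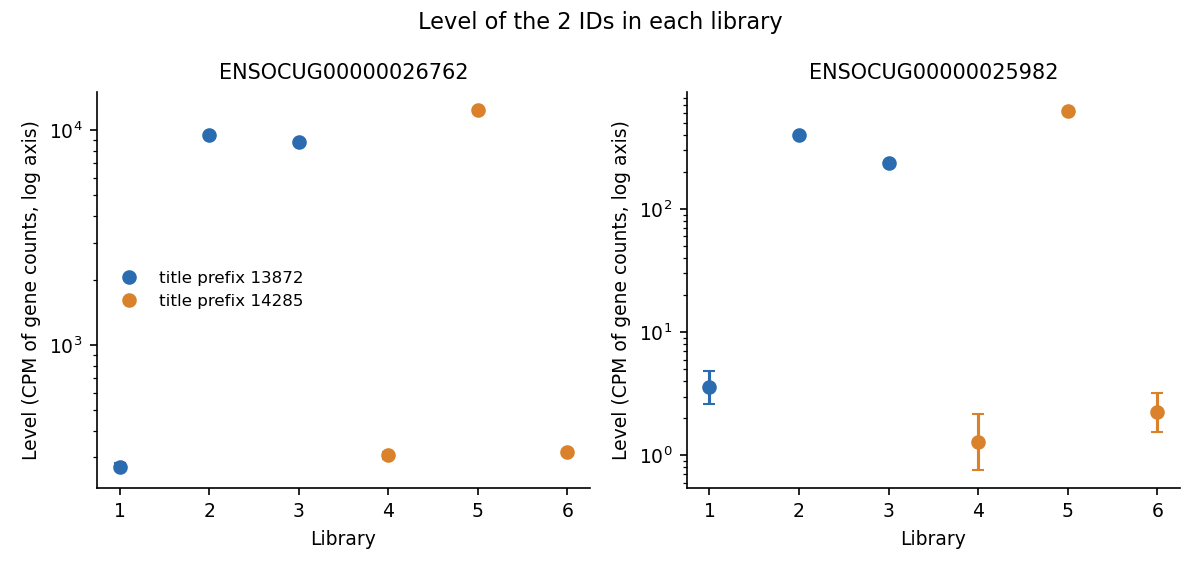
Level of each of the 2 IDs (CPM of gene counts, log axis) in libraries 1 to 6, coloured by title prefix, with Wilson 95% intervals as bars, which are mostly hidden by the points. Libraries 2, 3 and 5 lie at 8811 to 12344 CPM for ENSOCUG00000026762 and at 238 to 622 CPM for ENSOCUG00000025982, and libraries 1, 4 and 6 lie below, at no more than 317 and 3.56 CPM.

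Among the 9277 IDs averaging at least 5 CPM, the standard deviation of log2 CPM over the 6 libraries had a median of 0.23. It was 4.08 for ENSOCUG00000025982 and 2.79 for ENSOCUG00000026762, the 11th and 18th largest. Outside the run of 37 IDs they were the 2nd and the 7th. Since the pair was picked for its spread, these ranks are a description.

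The 2 IDs did not rise in a fixed proportion. For each 100 counts on ENSOCUG00000026762, ENSOCUG00000025982 had 4.16 in library 2 (Wilson 95% interval 4.03 to 4.30), 2.70 in library 3 (2.60 to 2.80) and 5.04 in library 5 (4.91 to 5.16). These 3 intervals did not overlap. In libraries 1, 4 and 6 the ratio was lower, at 1.31 (0.958 to 1.78), 0.418 (0.248 to 0.702) and 0.707 (0.488 to 1.02). The ratio thus spanned 12.1-fold over the 6 libraries. Counting error alone did not cover the differences within either range, except that library 6 overlapped both library 1 and library 4. By title prefix the ratios overlapped, at 2.72 ± 1.43 under 13872 and 2.05 ± 2.59 under 14285 (SD, n = 3 each; exact two-sided permutation p = 0.7, adjusted p = 1 over 6 measures).

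Strand was read from the tables' separate columns, one for the annotated strand of each ID and one for the other strand. Nearly all counts of ENSOCUG00000026762 lay on its annotated strand. The other strand received 3, 300, 275, 1, 67 and 3 counts in libraries 1 to 6. That is 0.320% (Wilson 95% interval 0.285% to 0.358%), 0.252% (0.224% to 0.284%) and 0.0508% (0.0400% to 0.0645%) of its counts on both strands in libraries 2, 3 and 5. Over all IDs the other strand held 1.29% to 2.39% of the counts of a library, above the share of ENSOCUG00000026762 in 6 of 6 libraries. One ID of the run, ENSOCUG00000029097, gave 68532, 119493 and 88100 other-strand counts in libraries 1, 4 and 6. The median ID averaging at least 5 CPM had 0.303%, 0.231% and 0.126% in libraries 1 to 3 and 0% in libraries 4 to 6. ENSOCUG00000026762 was below this median in library 1, at 0.0980%, and above it elsewhere.

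ENSOCUG00000025982 differed from its neighbour in the share of the other strand. Its other strand received 213, 180 and 156 counts in libraries 2, 3 and 5, a share of 5.19% (Wilson 95% interval 4.55% to 5.91%), 5.77% (5.01% to 6.65%) and 2.29% (1.96% to 2.68%). The shares of the whole libraries were 1.48%, 1.60% and 1.29%, below each of these intervals. In libraries 1, 4 and 6 the other strand had 0, 2 and 0 counts, beside 40, 14 and 28 on the annotated strand, and the intervals reached 8.76%, 36.0% and 12.1%. At this depth a difference from the upper range was not detectable. Over the 6 libraries together the other strand held 3.91% of the counts of ENSOCUG00000025982 and 0.188% of those of ENSOCUG00000026762. The median of the IDs averaging at least 5 CPM was 0.255%, and 89.3% of those IDs had a lower share than ENSOCUG00000025982, against 44.1% for ENSOCUG00000026762.

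**Figure D2:**
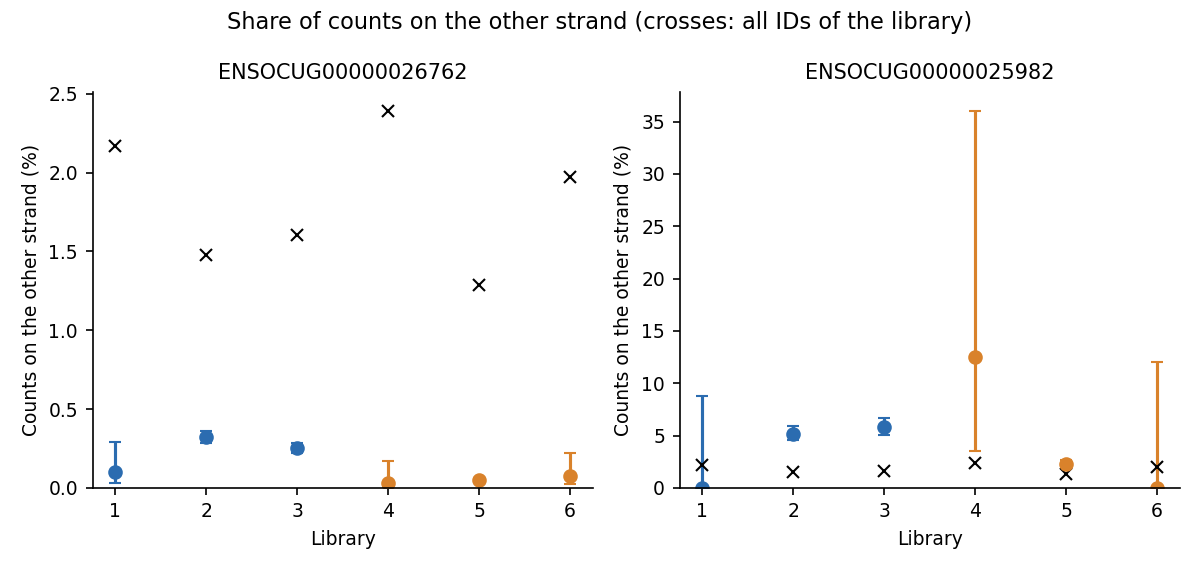
Share of counts on the other strand, in percent of the counts on both strands, for each of the 2 IDs in libraries 1 to 6, with Wilson 95% intervals as bars, blue for prefix 13872 and orange for 14285. Crosses give the share over all IDs of the library (1.29% to 2.39%); ENSOCUG00000026762 lies below the cross in every library, and ENSOCUG00000025982 lies above it in libraries 2, 3 and 5. The crosses weigh each ID by its counts. The median ID averaging at least 5 CPM lay lower, at 0% to 0.303%. The vertical axes of the panels differ.

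The counts made without regard to strand equalled the sum of both strand columns for both IDs in 6 of 6 libraries. A fragment that falls on genes of both strands is dropped from the column without strand but kept in the separate ones, so no such fragment was seen on the pair. This was common in the tables: it held in every library for 7942 of the 9277 IDs averaging at least 5 CPM (85.6%). In the run of 37 IDs it held for 5 of the 17 IDs that reached 100 counts in a library.

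None of the rows around the pair had swings of its size. Of the 5 rows before and the 5 after, ENSOCUG00000024806, ENSOCUG00000027826 and ENSOCUG00000026827 had 0 counts in each library, and ENSOCUG00000025055 had 1 count in all. The row before the pair, ENSOCUG00000023301, had 9, 24, 10, 11, 20 and 11 counts in libraries 1 to 6, and ENSOCUG00000028037 had 19, 25, 61, 61, 34 and 29. ENSOCUG00000023346 had at most 3 counts and ENSOCUG00000010214 at most 11. The best counted were ENSOCUG00000011336, at 46.5, 45.2, 58.9, 28.2, 30.1 and 28.9 CPM in libraries 1 to 6, and ENSOCUG00000015646, at 25.5, 33.4, 41.4, 18.0, 21.4 and 23.9 CPM. Their levels spanned 2.09-fold and 2.30-fold. Both were higher in each library of prefix 13872 than in each of prefix 14285, and in 26.2% of the 11945 IDs tested by prefix the libraries did not overlap. Whether neighbouring rows are neighbours on the genome is not stated in the tables.

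In the run, 17 IDs reached 100 counts in a library. In 11 of them the levels spanned more than 100-fold between libraries, with counts under 3 raised to 3. These 11 stand at places 11, 19, 21, 22, 23, 25, 27, 28, 32, 35 and 36. Their levels had a median of 2218, 3.05, 2.02, 2048, 3.46 and 1844 CPM in libraries 1 to 6. The libraries with high counts on the pair are thus those with low counts on the 11, as the choice of the pair required. The other 6 stand at places 2, 4, 6, 10, 16 and 33, and their range was 1.97-fold to 23.3-fold. At place 16, ENSOCUG00000029096 had 67470, 42615, 41096, 80834, 52207 and 75905 CPM in libraries 1 to 6. Its range of 1.97-fold was the smallest of the 17, with libraries 2, 3 and 5 at the lower end.

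**Figure D3:**
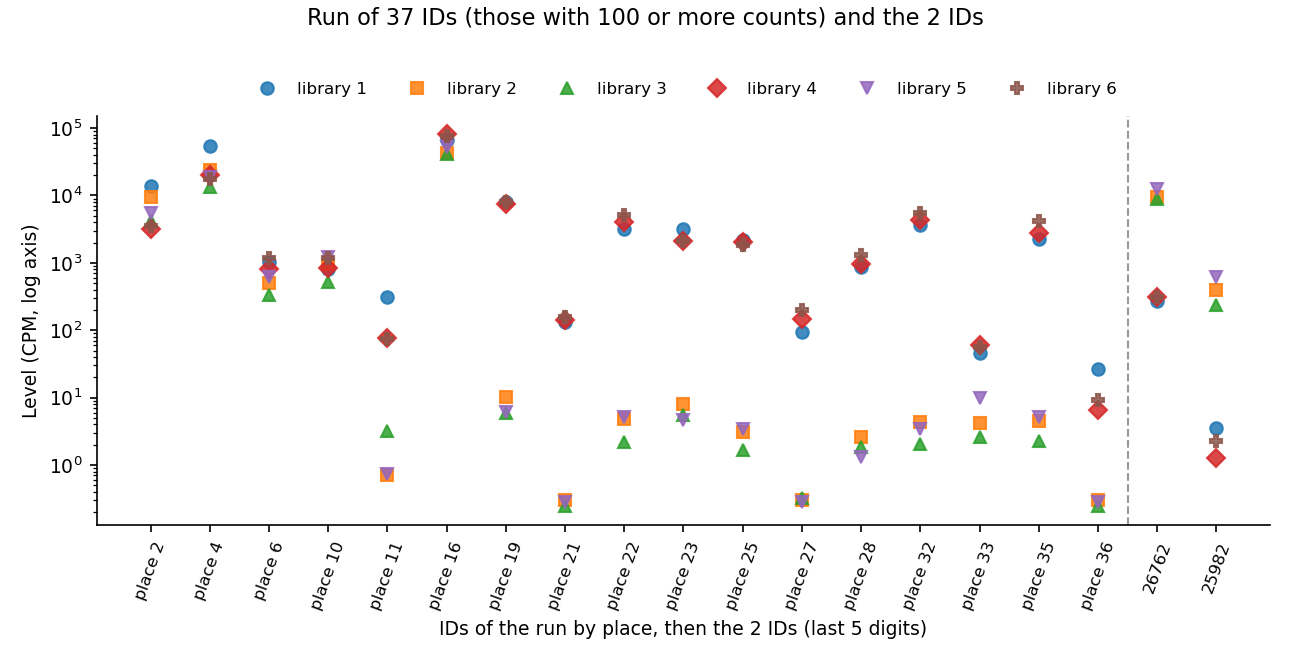
Level (CPM, log axis) of the 17 IDs of the run with 100 or more counts in a library, by place, and right of the dashed line of ENSOCUG00000026762 and ENSOCUG00000025982, each point a library; levels from fewer than 3 counts are drawn at the level of 3 counts. From place 19 on, libraries 2, 3 and 5 lie below libraries 1, 4 and 6 at each place shown, and right of the line they lie above.

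The pair and the 11 IDs of the run took different shares of fragments. The pair took 0.0107%, 0.366%, 0.320%, 0.0132%, 0.515% and 0.0133% of all fragments in libraries 1 to 6. The 11 IDs took 0.933%, 1.03% and 1.19% in libraries 1, 4 and 6, from 269838, 262712 and 357862 counts. In libraries 2, 3 and 5 they had 383, 309 and 326 counts in all. Of the counts on the pair and the 11 together, the pair held 1.14%, 99.6%, 99.7%, 1.27%, 99.8% and 1.10% in libraries 1 to 6. The pair and the 11 were chosen by their levels in these libraries, so this split is a description. The sum of both did not stay level: in libraries 1 to 6 it was 0.944%, 0.367%, 0.321%, 1.05%, 0.516% and 1.21% of fragments. With the whole run added to the pair, the shares were 6.28%, 3.22%, 2.43%, 5.60%, 3.63% and 5.36%, and libraries 2, 3 and 5 were still the 3 lowest.

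Fragments that entered no gene count are given beside these values. Fragments aligned to several places made up 6.75%, 8.02%, 7.48%, 7.18%, 8.64% and 6.85% of all in libraries 1 to 6. Libraries 2, 3 and 5 were the 3 highest, with library 3 at 7.48% above library 4 at 7.18%. In libraries 2, 3 and 5 these were 2137831, 2608858 and 2324774 fragments, compared with 97465, 111760 and 138546 on the pair. Fragments on an ambiguous gene of the annotated strand numbered 5707, 7632 and 5125 in libraries 2, 3 and 5, against 33740, 28827 and 37037 in the other 3. The other strand column had 1279, 1848 and 1175 such fragments against 15833, 7473 and 10090. The column without strand gave 0.204%, 0.214% and 0.223% against 0.582%, 0.816% and 0.622% of fragments. The ambiguous share was therefore low where the pair was high in all 3 columns, and the multiply aligned share was high there. Unmapped fragments parted the title prefixes instead, at 8.20%, 7.27% and 8.94% in libraries 1 to 3 and 5.16%, 4.71% and 4.75% in libraries 4 to 6, a share not tested by prefix. The part of these fragments in the levels of the pair was not tested, because the tables do not say where they aligned. By title prefix, the multiply aligned share (exact two-sided permutation p = 0.9) and the ambiguous share (exact permutation p = 0.7) overlapped, each with an adjusted p of 1 over 6 measures.

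**Figure D4:**
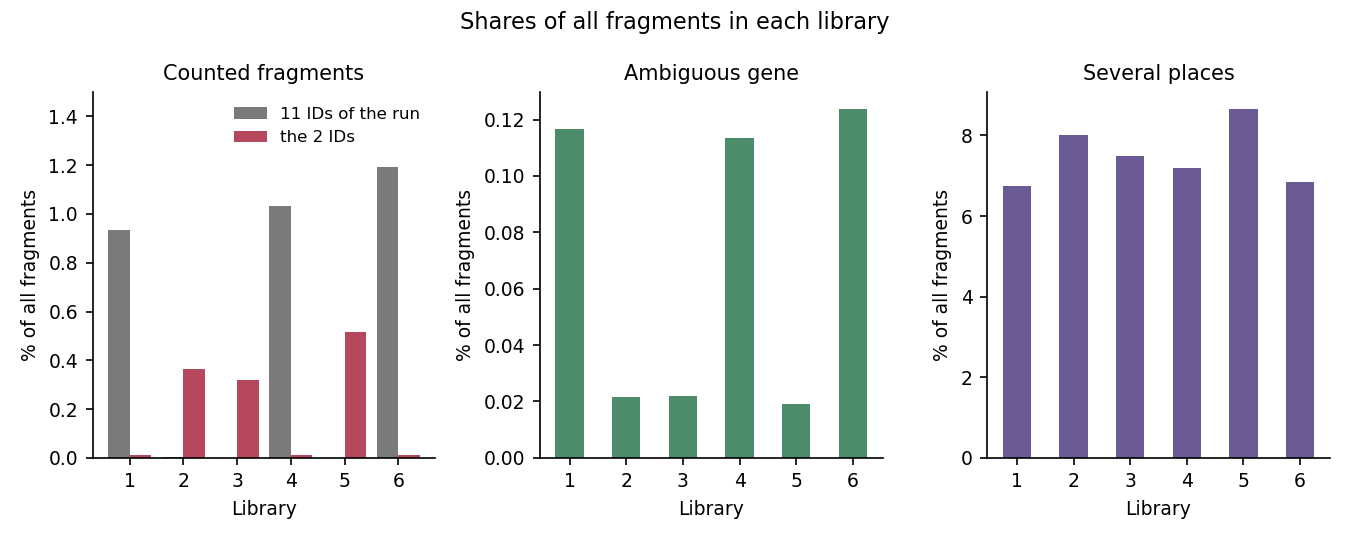
Percent of all fragments in each of libraries 1 to 6 that were counted on the 11 IDs of the run (grey) and on the 2 IDs (red), that fell on an ambiguous gene of the annotated strand (middle), or that aligned to several places (right). In libraries 2, 3 and 5 the 2 IDs take 0.320% to 0.515% and the 11 IDs 0.001%; the ambiguous share is 0.019% to 0.022% there and 0.113% to 0.124% in the others.

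The title prefix is the only division that the labels give, and the rule that chose the pair did not use it. The rule did pick IDs that were high in certain libraries, and those libraries fall under both prefixes. Overlap, wide standard errors and the absence of a call by prefix were thus largely fixed by the choice and are a description. ENSOCUG00000026762 averaged 6201 ± 5147 CPM under 13872 and 4322 ± 6947 CPM under 14285, and ENSOCUG00000025982 averaged 213 ± 197 and 208 ± 358 CPM (SD, n = 3 each). In both IDs the libraries of the prefixes overlapped, as they did for all but 26.2% of the 11945 IDs tested. The log2 fold change of 14285 over 13872 was -0.47 (SE 1.49) for ENSOCUG00000026762 and 0.00 (SE 1.90) for ENSOCUG00000025982, with adjusted p = 0.879 and adjusted p = 0.999 in edgeR's quasi-likelihood test. Neither ID was called, where 0.0419% of all IDs tested were. At an unadjusted p under 0.05 edgeR also listed 0 of the 2, against 21% of all IDs, and DESeq2 called 0 of the 2 against 5.41%. The estimates rest on library 5, which is the only one of prefix 14285 in the upper range. Without it the log2 fold changes were -4.20 and -6.79, with unadjusted p = 0.0109 and 0.00569 and adjusted p = 0.231 and 0.213 in edgeR. In that setting 1903 of the 12258 IDs tested had an unadjusted p under 0.05. Prefix 14285 then keeps only libraries of the lower range. As the pair was chosen for that range, these p-values are a description. With standard errors of this size, the test does not show that the prefixes are alike.

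A single value of the pair parted the prefixes. The share of counts of ENSOCUG00000026762 on the other strand was 0.223% ± 0.114 under 13872 and 0.0521% ± 0.0230 under 14285 (SD, n = 3 each), with no overlap. The exact two-sided permutation p was 0.1, the smallest that 3 against 3 allows, and the adjusted p was 0.6 over 6 measures. Libraries 1, 4 and 6 contributed 3, 1 and 3 counts to these shares. The median share of the other strand over IDs averaging at least 5 CPM also parted the prefixes, at 0.303%, 0.231% and 0.126% in libraries 1 to 3 and 0% in each of libraries 4 to 6, and its part in the result was not tested. For ENSOCUG00000025982 the shares overlapped between prefixes (exact permutation p = 0.9, adjusted p = 1 over 6 measures).

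Profiles were compared by the root mean square, over the 6 libraries, of the difference between centred log2 CPM values, in which 0 would be the same profile. Between the 2 IDs of the pair this distance was 1.25, while the median ID lay at 2.52 from ENSOCUG00000026762 and at 3.69 from ENSOCUG00000025982. An ID with the same level in every library would lie at a distance set only by the spread of the pair's ID. The median standard deviation was 0.23, so most IDs were close to flat, and these 2 medians mostly reflect that spread. Outside the pair, ENSOCUG00000023193 came nearest to both, at 1.06 and 2.09. Its levels in libraries 1 to 6 were 3.65, 18.6, 16.4, 1.46, 39.1 and 2.40 CPM, so its order over the upper range was again 5, 2, 3. It lies far from the pair, in row 7282, and had 0 counts on the other strand in every library. ENSOCUG00000027093 (1.70), ENSOCUG00000026348 (1.88), ENSOCUG00000013515 (1.89) and ENSOCUG00000020913 (1.92) followed for ENSOCUG00000026762. ENSOCUG00000027093 and ENSOCUG00000026348 had libraries 2, 3 and 5 on top as well, but with far smaller gaps: ENSOCUG00000027093 was at 36.2 CPM in library 4, close to its 43.9 and 44.2 CPM in libraries 2 and 3, and ENSOCUG00000026348 spanned 24.5 to 124 CPM in all. ENSOCUG00000013515 was at 24.2 CPM in library 3 and at 26.7 CPM in library 1. ENSOCUG00000020913 was at 24.0 CPM in library 5 and at 0.549 to 4.81 CPM elsewhere, so in these last IDs the upper and lower libraries overlapped.

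For ENSOCUG00000025982 the next nearest were ENSOCUG00000023327 (2.61), ENSOCUG00000020913 (2.76), ENSOCUG00000027093 (2.91) and ENSOCUG00000013515 (2.93). ENSOCUG00000023327 had 2 and 3 counts in libraries 1 and 4 and stood at 19.9 to 29.6 CPM in the other libraries, library 6 included. The distance between the 2 IDs of the pair is fixed in part by their choice, since both were picked for being high in the same libraries. For ENSOCUG00000026762, ENSOCUG00000023193 was nearer than its partner. ENSOCUG00000023193 lost its first place outside the pair without library 4 or 6 for ENSOCUG00000026762, and without library 4, 5 or 6 for ENSOCUG00000025982. The likeness lists depended on the libraries and on the expression minimum. With a minimum mean of 1 CPM in place of 5, 1 of the 5 nearest IDs was shared for ENSOCUG00000026762 and 2 of the 5 for ENSOCUG00000025982, and without library 5, 1 of 5 was shared for each.

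Mirror images are IDs that were low where the pair was high, by a like amount. For ENSOCUG00000025982 the 5 nearest mirror images were all in the run: ENSOCUG00000029107 (0.757), ENSOCUG00000029103 (0.932), ENSOCUG00000029108 (0.966), ENSOCUG00000029091 (1.17) and ENSOCUG00000029101 (1.22). ENSOCUG00000029103, at place 23, had 3130, 8.14, 5.59, 2075, 4.68 and 2102 CPM in libraries 1 to 6. This list held 4 or 5 of its 5 IDs with any single library left out. For ENSOCUG00000026762 the nearest were ENSOCUG00000029116 (0.763), ENSOCUG00000029091 (1.05) and ENSOCUG00000029113 (1.09) of the run, then ENSOCUG00000004289 (1.33) and ENSOCUG00000024691 (1.73) outside it. ENSOCUG00000029116 had 0, 0 and 1 counts in libraries 2, 3 and 5, so its profile there was set by the prior count of 2. Because the pair was chosen against the run, the presence of the run in these lists is no finding.

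ENSOCUG00000004289, in row 23613 and outside the run, is listed for its nearness to the mirror image, so its order of libraries is a description. Its levels in libraries 1 to 6 were 122, 0.814, 9.07, 35.6, 0.468 and 18.1 CPM. Libraries 2, 3 and 5 were the 3 lowest, but library 3, with 112 counts, stood well above libraries 2 and 5, which had 8 and 5. ENSOCUG00000024691 was at 63.2 CPM in library 2, above the 53.6 CPM of library 1, so it did not part the libraries in this way.

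**Figure D5:**
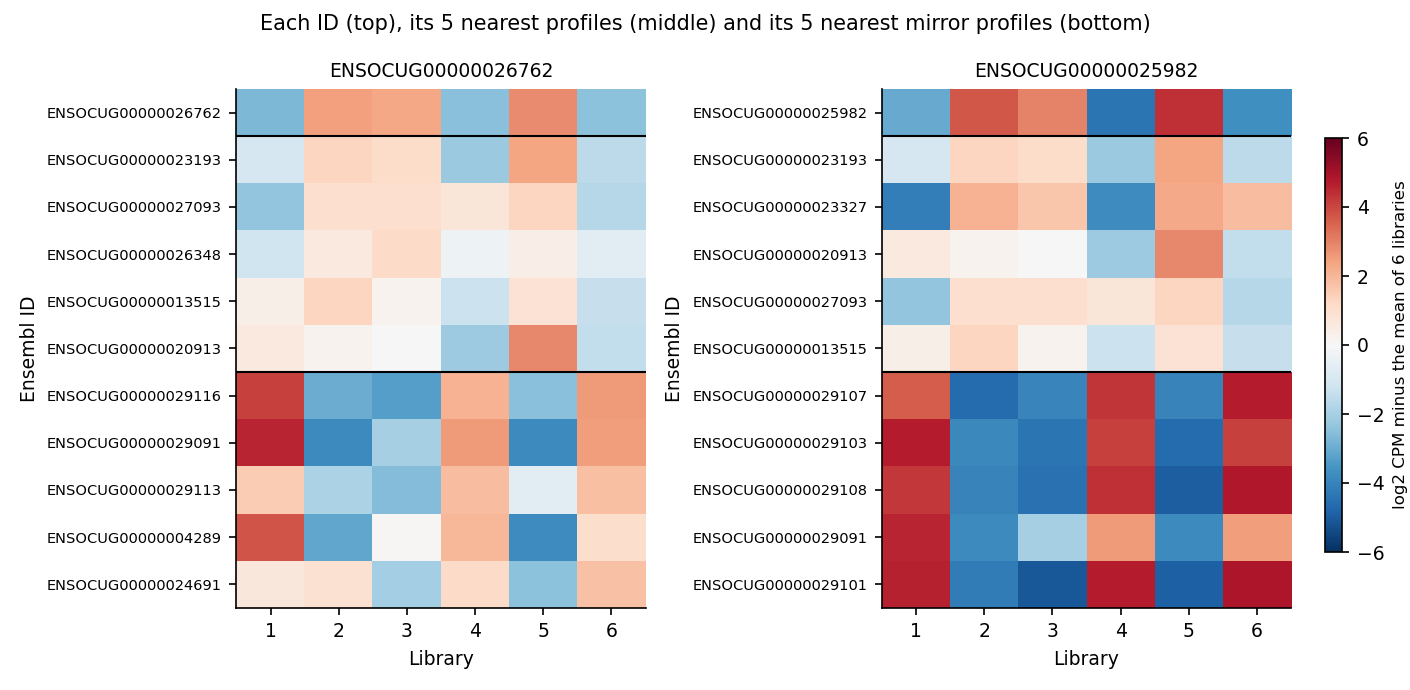
Log2 CPM of each library minus the mean of the 6 libraries (colour, red above and blue below the mean) for each of the 2 IDs (top row of each panel), the 5 IDs with the nearest profile (middle rows) and the 5 IDs with the nearest mirror image (bottom rows). Columns are libraries 1 to 6. The 5 mirror images of ENSOCUG00000025982 are all IDs of the run, at distances of 0.757 to 1.22; its nearest profile outside the pair is at 2.09.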

How the data were processed

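The authors deposited raw fragment counts per gene ID, laid out as STAR writes them. The submitters' processing notes name STAR, DESeq2 and the build OryCun2.0; their versions, the annotation release and the settings are not given in the sources consulted. RNA was depleted of ribosomal RNA and libraries were stranded and read as pairs, per the labels' protocols. Column 4, which held most gene counts in every library, was taken as the annotated strand and column 3 as the other strand. Column 2 disregards strand. The 4 rows that name no gene stayed out of totals and tests. The reference table (mOryCun1.1, 38822 genes) carries no Ensembl IDs.

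Computed here were CPM, shares with Wilson 95% intervals, distances between centred log2 CPM (prior count 2, mean of 5 CPM or more) and exact permutation tests (scipy 1.17.1). The title prefix was tested over all IDs with edgeR 4.0.16 in R 4.3.3 (TMM, filterByExpr, quasi-likelihood test, Benjamini-Hochberg, threshold 0.05). DESeq2 1.42.0 was an alternative. Standard errors divide the size of the log2 fold change by the square root of F. Scripts were tested on simulated data. Named IDs are the pair, the 5 nearest and 5 mirror profiles of each, IDs of the run with 100 or more counts, and the 5 rows on either side. The pair, the run and these lists were chosen with earlier results of these data known. All libraries were treated as separate samples. The chi-square per degree of freedom between any 2 was at least 16.6, so they differed by more than counting error. This does not show that they came from separate animals.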

Additional observations from a re-analysis of the deposited data

Results flagged for a closer look

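A library lay far from the rest in 5 of 35 sets of 6 values examined, by Dixon's ratio of the gap to the range. For independent, normally distributed values about 1 in 20 is what chance gives. The sets share the same libraries and many of their IDs were picked by their levels, so that rate is no yardstick here. None of the 5 was a level, strand share or ratio of ENSOCUG00000026762 or ENSOCUG00000025982. ENSOCUG00000020913, among the 5 nearest profiles of both, reached 24.0 CPM in library 5, with 4.81 CPM next. Library 1 was the high one in the other sets. ENSOCUG00000029091 stood there at 310 CPM (next 77.7), ENSOCUG00000029116 at 27.0 CPM (next 9.11) and ENSOCUG00000004289 at 122 CPM (next 35.6), each among the mirror profiles. ENSOCUG00000029084, at place 4 of the run, stood at 54046 CPM in library 1, with 23497 CPM next.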

How the results depend on the processing

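The levels of the pair fall into separated ranges of 3 libraries each, so a median over the libraries moves with the choice of library: without any 1 of them it was 317 to 8811 CPM for ENSOCUG00000026762 and 3.56 to 238 CPM for ENSOCUG00000025982, and the median ratio was 1.31 to 2.70 counts per 100. On the other strand the median was 247 CPM of other-strand counts for ENSOCUG00000026762, in place of 4564 CPM, and that of ENSOCUG00000025982 was 452 CPM, in place of 121 CPM. Unstranded counts gave medians of 4551 CPM for ENSOCUG00000026762 and 127 CPM for ENSOCUG00000025982. Gene counts without the run and the pair as the denominator gave 4912 and 130 CPM. With all fragments as the denominator, on the same scale, the medians were lower, at 1626 and 42.8. The SD over the libraries, 5564 and 259 CPM, is larger than the medians of 4564 and 121 CPM. No fall of a median could exceed that SD, so it is no yardstick for these shifts. IDs called by title prefix numbered 5 of 11945 tested. Against this stood 505 of 9343 with DESeq2, 79 of 18581 with no low-count filter and 1 to 2 of 12134 to 12258 without 1 library. The cause was not tested, other than that fewer libraries enter the last of these. The pair was not called under any of these settings, which is a description, as its pattern over the libraries was chosen. The log2 fold change of ENSOCUG00000026762 turned to 0.041, 0.080 and 0.084 without libraries 2, 4 and 6 and was -4.20 without library 5, and that of ENSOCUG00000025982 to -0.025 with unstranded counts and to -0.57 and -6.79 without libraries 1 and 5, with a highest value of 0.90 without library 2. Without any 1 library, 1 to 4 of the 5 nearest profiles of each ID were shared, and 4 to 5 of the 5 mirror profiles of each. With a mean of 1 CPM or more, 1 and 2 nearest profiles and 2 mirror profiles of ENSOCUG00000026762 were shared, and unstranded counts left 3 of those mirror profiles. No paired analysis was possible because all libraries form 1 group.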

Other observations

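Counting without regard to strand removed all counts from some of the mirror profiles in the run and kept those of others. The pair kept all its counts, and so did ENSOCUG00000029101 and ENSOCUG00000029108, whose unstranded counts equalled the sum of both strands in 6 of 6 libraries. ENSOCUG00000029103 and ENSOCUG00000029107 did so in 5 of 6. ENSOCUG00000029091, a mirror profile of both IDs at place 11, had 0 unstranded counts in every library, although its annotated strand held 3488 counts in library 1 and 850 in library 4. ENSOCUG00000029116, at place 36, also had 0 unstranded counts in every library, with 303 and 71 on its annotated strand in the same libraries. ENSOCUG00000029113 kept 848 unstranded counts in library 1, where its strands held 523 and 552.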
